A study of Mus musculus with 18 samples.

Results

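The gene group described here covers the path of fatty acids through a fat cell: uptake and activation, synthesis, elongation and desaturation, esterification to triglyceride, coating of the lipid droplet, and lipolysis. It holds 43 genes of the 17267 gene symbols in the 2 deposited tables, and they were chosen by symbol for their known role, 9 in uptake and activation, 3 as regulators and 5 as enzymes of synthesis, 8 in elongation and desaturation, 8 in glycerol supply and esterification, 4 in the droplet coat and 6 in lipolysis. The tables are poly(A) RNA sequencing of primary preadipocytes, the fibroblast-like precursors of fat cells, from the epididymal fat of wild-type (WT) mice, with 3 libraries in each of 6 groups. Of the undifferentiated cells, the CD mock group came from mice on a control diet (CD) and received no factor, the TGF-b1 group was the same kind of cell given TGF-b1, a cytokine of the fibrosis response, and the SB431542 group was given TGF-b1 plus SB431542, a small molecule that blocks the kinase of the type I receptor for TGF-b. No group was given SB431542 without TGF-b1. The HFD mock group came from mice on a high-fat diet (HFD) and received no factor. The remaining groups were sorted with an antibody to CD49e, the product of Itga5 (the fibronectin receptor subunit), into Itga5-High and Itga5-Low cells and then taken through adipogenic differentiation. No transgene, deletion or clone is named for any group. Doses, times, sex and age are not given in the labels, nor is the diet of the sorted cells' donors. The labels do not say whether the 3 libraries of a group came from separate animals or cultures, so p-values reflect the spread among these libraries alone, and that spread may be technical.

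A fat cell takes fatty acids from circulating lipoproteins or makes them from acetyl-CoA, joins them to a glycerol backbone as triglyceride, and keeps the triglyceride in a droplet covered by perilipins. In fasting, lipases at the droplet surface release the fatty acids again in a fixed order of enzymes, under the control of coactivators and inhibitors. Many of these genes are low in preadipocytes and come on during adipogenesis, when Pparg and the C/EBP factors are active, whereas the core enzymes of fatty acid synthesis are used by most dividing cells.

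Depth was 11154426 to 17288580 counts per library, and replicates were close: the median coefficient of variation over members was 1.31 to 3.59% by group, beside 1.69 to 3.43% from counting alone. Markers of preadipocytes were counted in all groups, 8 of 8 in each, with Pdgfra at 150.3 to 486 CPM (the usual depth-scaled read count, with TMM library factors) by group mean. Some others varied more. Dpp4 was at 128 CPM in CD mock, 0.775 in Itga5-High and 0.535 in Itga5-Low cells, and Ly6a at 81.7, 997 and 836 CPM in that order. The undifferentiated cultures also held RNA of other cells, with macrophage markers at 572 to 2731 summed CPM, endothelial markers at 123 to 943 and mesothelial markers at 671 to 2624. In the differentiated libraries these lists were at 23.9 to 47.5, 26.5 to 30 and 42.2 to 104. The macrophage sum there covers 11 of its 14 genes and the mesothelial sum 7 of its 10. Lymphocyte markers were at or near 0 in every library. In bulk samples such as these, fewer cells of a type and less RNA per cell cannot be told apart. Adjusted p-values below are from edgeR's quasi-likelihood test with Benjamini-Hochberg adjustment over all genes tested, called at 0.05. Scaling by total counts in place of TMM moved the median log2 change of all genes from -0.02 to -0.16 with TGF-b1. It moved from 0.04 to 0.29 for SB431542 against TGF-b1 and from 0.01 to 0.12 for SB431542 against mock. For HFD against CD mock it moved from -0.01 to -0.09, and for Itga5-High against Itga5-Low from -0.00 to -0.04. Members whose direction depends on this are named below.

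Levels of different members were compared per kilobase of transcript. In CD mock cells Lpl, the lipase that frees fatty acids from lipoproteins, stood highest at 275 ± 3.11 CPM per kb (SD, n = 3), followed by the stearoyl-CoA desaturase Scd2 at 246 ± 0.843 and the fatty acid carrier Fabp4 at 229.7 ± 3.75. After differentiation Fabp4 was highest in both groups, at 4579 ± 16.3 CPM per kb in Itga5-High and 4568 ± 32.6 in Itga5-Low cells, with Scd1 next at 871 ± 5.86 and 792 ± 2.48. The fatty acid synthase Fasn lay at 51 ± 0.116 CPM per kb in CD mock and 112 ± 1.36 in Itga5-Low cells.

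Most droplet and lipolysis members stood lower in undifferentiated than in differentiated cells, while the synthesis enzymes were well counted in both. The droplet-fusing protein Cidec averaged 0.422 CPM in CD mock cells and 306 and 451 CPM in Itga5-High and Itga5-Low cells. Elovl3, an elongase of saturated and monounsaturated chains that is known from brown and cold-exposed fat, had 3 to 7 counts per undifferentiated group and 38.5 ± 0.983 and 38.2 ± 2.46 CPM in the differentiated ones. Glycerol phosphate dehydrogenase Gpd1 stood at 2.5 CPM in CD mock cells beside 437 and 605 CPM, and the adipose lipase Pnpla2 at 42.5 beside 409 and 579. Fasn stood at 507 beside 901 and 1115 CPM and ATP citrate lyase Acly at 406 beside 402 and 469.8 CPM. The tables of undifferentiated and differentiated cells were made separately, so these levels are set side by side without a test. Pck1, the glyceroneogenic enzyme, was not analysed here in undifferentiated cells and averaged 4.36 and 7.95 CPM in Itga5-High and Itga5-Low cells.

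**Figure D1:**
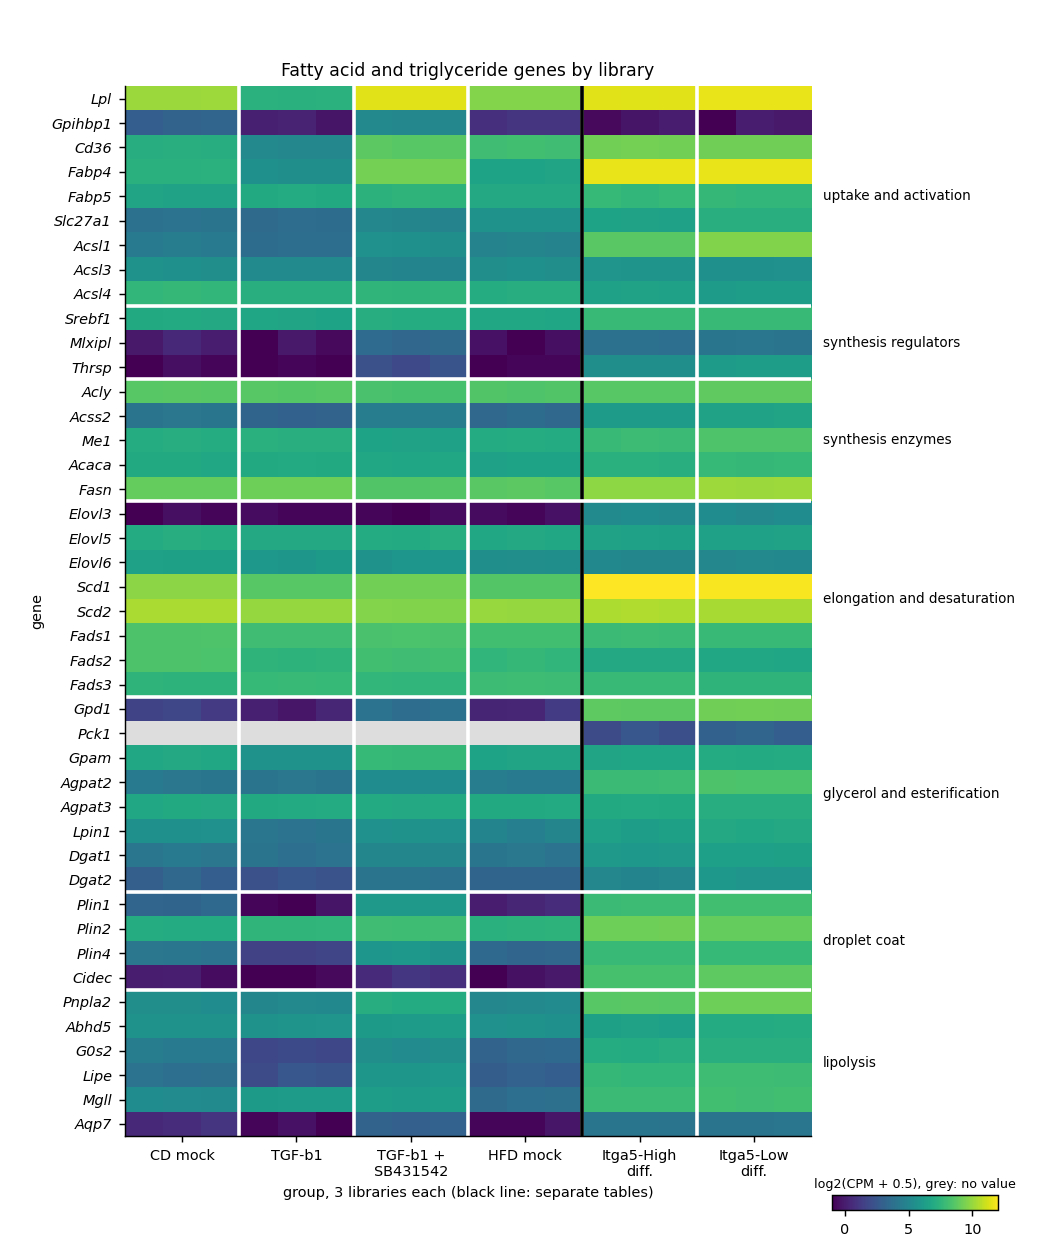
Levels of the 43 members as log2(CPM + 0.5) in each of the 18 libraries, with members ordered by step and libraries by group, where grey marks Pck1 with no value. Lighter cells are higher, with Plin1 at 0 to 0.337 CPM in the TGF-b1 libraries and 64 to 66.9 CPM in the SB431542 libraries.

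Among the 4 undifferentiated groups, 42 members had values. The SB431542 group was highest for 26 members and stood clear of the next group in all 3 libraries for 25 of them. The TGF-b1 group was lowest for 24 and clear of the next for 17. These orders were counted for the members alone, so no share over all genes stands beside them. Over all genes tested, libraries did not overlap for 80.2% between SB431542 and TGF-b1 and for 64% between SB431542 and mock. CD mock cells were highest for 9 members, among them 6 of the elongation and desaturation step: Elovl5, Elovl6, Scd1, Scd2, Fads1 and Fads2, of which Elovl5 overlapped the next group. HFD mock cells were highest for 3, the fatty acid transporter Slc27a1, the desaturase-like Fads3 and the barely counted Elovl3, and lowest for 8. With TMM scaling, not every neighbour in these orders was separated. Acly did not differ between CD mock and TGF-b1 libraries beyond their spread, nor did Lpin1 between SB431542 and CD mock libraries. Agpat3 did not differ between any neighbouring groups.

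TGF-b1 against mock asks how these genes differed in control-diet preadipocytes given the cytokine. More members fell than rose in every step except the synthesis enzymes, and Plin1, Gpihbp1, Aqp7, Cidec, Lpl, G0s2 and Plin4 fell most. Of 41 members tested, 29 fell and 7 rose, where 67.8% of all 14078 genes tested were called, 33.5% higher and 34.3% lower. With total counts 32 fell and 4 rose, and the share of calls that were higher went from 49.4% to 31.4% over all genes and from 19.4% to 11.1% over members. A fall of 1 log2 unit or more was seen in 16 members, beside 11.2% of all genes, and none rose as much, beside 3.59%. The median log2 change of the members was -0.44, against -0.02 for all genes, and the libraries did not overlap for 36 members, beside 69.4% of all genes.

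The largest fall was that of Plin1, the perilipin that guards the adipocyte droplet from lipases. It was at 8.96, 8.63 and 10.7 CPM in the CD mock libraries, at 0.0853, 0 and 0.337 CPM in the TGF-b1 libraries and at 66.6, 66.9 and 64 CPM in the SB431542 libraries. The 3 groups did not overlap, and TGF-b1 libraries were near the limit of counting, with 6 Plin1 counts in all against 349 in mock. The ratio of summed CPM was 59.2, with an exact 95% interval for counting error of 26.9 to 162, and the fitted change was -5.80 ± 0.29 (log2 ± SE, adjusted p = 9.45e-27, edgeR quasi-likelihood test). Plin4, another perilipin of fat cells, fell 6.34-fold from 16.5 ± 1.25 to 2.57 ± 0.165 CPM. Cidec fell from 16 counts to 2, a ratio of 8.14 with a 95% interval of 1.91 to 73. Plin2, the perilipin that most cell types carry on small droplets, went the other way: it was 135, 129 and 129 CPM in mock and 184, 187 and 195 CPM in TGF-b1 libraries, a rise of 0.53 ± 0.029.

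The Plin1 gene lies on the minus strand of chromosome 7 (mm10, 79721164 to 79732777). Its start-site window is shown because Plin1 had the largest fitted change of any member, both for TGF-b1 against mock and for SB431542 against TGF-b1. The window of 300 bases (250 before and 50 after the annotated start, RefSeq, GRCm38.p6, the assembly of mm10) is at chr7:79732727-79733026, minus strand. Capitals mark the matches to TTGCNNAA, a pattern of C/EBP-type sites. It occurs at window positions 64 and 193.

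Plin1 start-site window: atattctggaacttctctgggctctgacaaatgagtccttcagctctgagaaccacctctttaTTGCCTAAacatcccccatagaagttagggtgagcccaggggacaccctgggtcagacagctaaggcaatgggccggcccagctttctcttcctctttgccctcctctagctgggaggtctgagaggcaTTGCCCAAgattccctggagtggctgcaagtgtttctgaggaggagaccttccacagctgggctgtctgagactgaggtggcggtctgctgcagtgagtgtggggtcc

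Such windows were found for 32 of the 43 members, at 44 start sites. Searched on both strands, TTGCNNAA was in 4 of the 44 (Agpat3, Cidec, Gpam and Plin1), beside 10.8% of all 32851 windows of that length. CACGTG, the E-box, was in 6 of 44 beside 7.15%, and CCAAT in 18 of 44, in 16 genes, beside 37.4%. TCACNCCAC, a sterol regulatory pattern, was in 2 of 44 (Acsl1 and Mlxipl) beside 1.24%, and AGGNCA repeated in the same direction with 1 base between, a pattern of nuclear receptors, was in 0 of 44 beside 0.381%. A match describes letters only, and no match says only that these letters are not in the window.

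In uptake and activation, 8 of 9 members fell with TGF-b1. Lpl was 1103, 1106 and 1126 CPM in mock and 159.9, 153 and 161 CPM in TGF-b1 libraries, a 7.02-fold fall. The scavenger receptor Cd36, which passes fatty acids across the membrane, was 139, 147 and 140.2 CPM in mock and 34.6, 32.2 and 33 CPM in TGF-b1 libraries, and Fabp4 fell 3.47-fold. Neither pair of groups overlapped. Gpihbp1, which holds lipoprotein lipase on capillary endothelium, fell from 305 to 20 counts, a ratio of 15.5 with a 95% interval of 9.87 to 25.8. Endothelial markers moved with it: 8 of 9 were lower, and their sum was 409.6 to 429.9 CPM in mock and 186 to 189.7 CPM in TGF-b1 libraries. Their part in the Gpihbp1 result was not tested. Fabp5, the carrier found in skin and macrophages as well as fat, was the 1 member of the step that rose, by 0.42 ± 0.034 on the log2 scale, from 92.6 ± 4.47 to 124 ± 3.53 CPM.

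The core synthesis enzymes moved little. Fasn was 507, 506 and 508 CPM in mock and 573, 575 and 576 CPM in TGF-b1 libraries, and the NADPH-yielding malic enzyme Me1 was 135, 140.0 and 133 CPM and 157, 152 and 149 CPM. Both were higher without overlap, by 0.18 ± 0.016 and 0.16 ± 0.029 on the log2 scale. Scaled by total counts, those changes were 0.03 and 0.01 and no longer called (adjusted p = 0.0681 and 0.695, edgeR quasi-likelihood test). Acly (-0.02 ± 0.018) and Acaca, the acetyl-CoA carboxylase (0.04 ± 0.033), were not called. With total counts both were called lower, Acly at -0.17 and Acaca at -0.10 (adjusted p = 8.13e-13 and 0.00438, edgeR quasi-likelihood test). Acss2, which makes acetyl-CoA from acetate, fell 2.02-fold from 16.7 ± 1.02 to 8.26 ± 0.535 CPM. Of the regulators, Srebf1, the gene of SREBP-1, fell by 0.31 on the log2 scale (SE 0.033). Mlxipl, the gene of the carbohydrate-responsive factor ChREBP, had 24 counts in mock and 7 in TGF-b1 libraries, a ratio of 3.49 with an interval of 1.46 to 9.59, and its call was lost without CD mock replicate 2 or without TGF-b1 replicate 1 (adjusted p = 0.102 and 0.0641, edgeR quasi-likelihood test). Thrsp, the Spot14 protein of lipogenic tissue, had 4 counts and 1, a ratio of 4.07 with an interval of 0.403 to 200.4.

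In elongation and desaturation, 6 of 7 tested members fell. Scd1 fell from 889.9, 893 and 893 CPM to 402, 405 and 399 CPM, and Fads2, which starts the making of long polyunsaturated chains, from 333 ± 4.44 to 176 ± 1.37 CPM. The mock and TGF-b1 libraries were far apart for both. Fads3 was the 1 that rose, by 0.31 ± 0.024. In esterification 5 of 7 fell, led by Gpd1 (94 counts against 23, a ratio of 4.16 with an interval of 2.61 to 6.88), the phosphatidate phosphatase Lpin1 (2.93-fold) and the first acyltransferase Gpam (2.26-fold). Agpat3 rose by 0.10 ± 0.031, which became -0.05 with total counts. Agpat2, its relative mutated in a congenital loss of fat, was not called at -0.15 ± 0.083. With total counts it was called lower (-0.30, adjusted p = 0.00138, edgeR quasi-likelihood test).

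In lipolysis, the members did not move together. G0s2, which binds and inhibits Pnpla2, was 22, 20.7 and 19.4 CPM in mock and 3.07, 3.37 and 3.1 CPM in TGF-b1 libraries, a 6.5-fold fall. Pnpla2 itself, the first lipase of the sequence, was 43.8, 43.9 and 39.8 CPM and 31.8, 34.9 and 33.4 CPM, a 1.28-fold fall, and its coactivator Abhd5 was not called (0.09 ± 0.049). Hormone-sensitive lipase Lipe fell 3.04-fold, from 13.9 ± 1.09 to 4.54 ± 1.02 CPM. Mgll, which takes the last fatty acid from monoglyceride, rose from 40.1, 38.7 and 36.8 CPM to 69.1, 71.6 and 74.5 CPM, by 0.90 ± 0.05 on the log2 scale. The glycerol channel Aqp7 went from 42 counts to 4, a ratio of 10.7 with a 95% interval of 3.88 to 41.

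Beside these, the adipocyte marker list was lower in TGF-b1 libraries, 7 of 7 tested, with a summed level of 64 to 66.3 CPM against 176 to 189 CPM in mock. Mesothelial markers were lower in 9 of 10, at a summed 729 to 744 CPM against 2594 to 2624 CPM, with Upk3b at 52.2 against 648 CPM. Preadipocyte markers were lower in 7 of 8, at a summed 1275 to 1300.4 CPM against 1908 to 1921 CPM, with Ly6a at 4.39 against 81.7 CPM and Pdgfra at 150.3 against 486 CPM. Macrophage markers split, 4 higher and 5 lower of 14, at a summed 635 to 653 CPM against 572 to 584 CPM. The part of all these markers in the members' changes was not tested. Of 60 other tested genes of the same steps, 18 rose and 32 fell, with a median of -0.15. Prkar2b, a regulatory subunit of the cAMP-dependent kinase that acts on lipolysis, fell from 35.7 to 5.43 CPM (-2.71 ± 0.088), and the fat cell adrenergic receptor Adrb3 from 3.64 to 0.742 CPM. The glycerol phosphate acyltransferase Gpat3 rose from 2.54 to 6.5 CPM (1.37 ± 0.18).

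**Figure D2:**
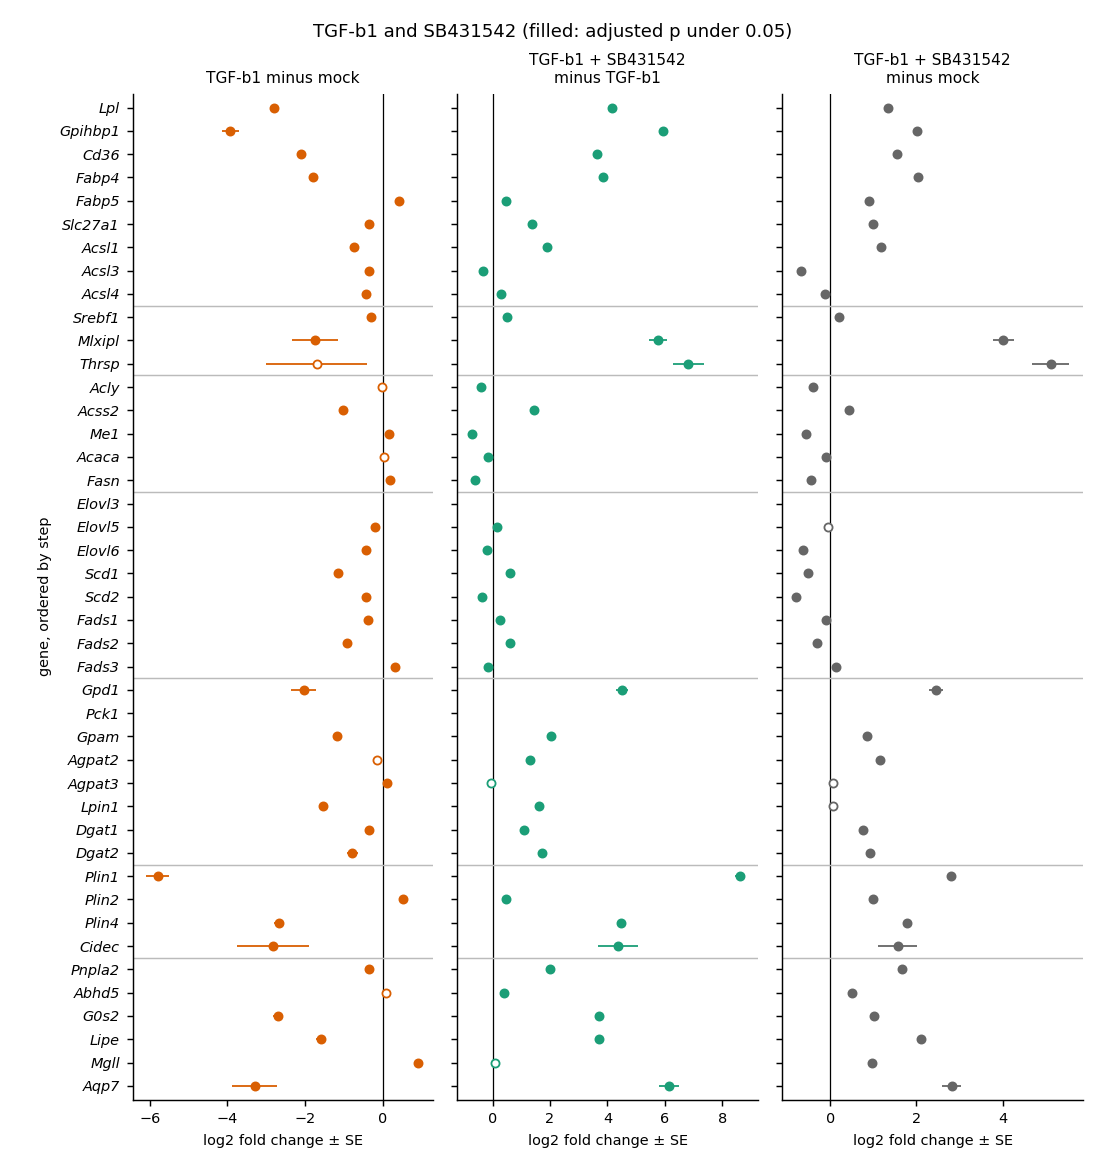
Log2 change of each tested member with its standard error in 3 panels: TGF-b1 against mock, TGF-b1 with SB431542 against TGF-b1, and TGF-b1 with SB431542 against mock. Filled points have an adjusted p under 0.05, and each panel has its own horizontal scale. Plin1 is at -5.80, 8.61 and 2.81 in the panels in that order, while Fasn is at 0.18, -0.63 and -0.46.

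TGF-b1 with SB431542 against TGF-b1 alone asks how these genes stood with the receptor kinase blocked. These libraries share the TGF-b1 group with the comparison before, so the 2 sets of values are not independent of each other. With the inhibitor, 4 of 4 droplet, 6 of 7 esterification, 8 of 9 uptake and 5 of 6 lipolysis members were higher, by amounts from 1.22-fold for Acsl4 to a ratio of 415 for Plin1, while 4 of 5 core synthesis enzymes were lower. Of 41 members tested, 31 were higher and 8 lower, where 79.7% of all genes were called, 41.5% higher and 38.2% lower. With total counts the split was 35 higher and 4 lower, so the share of member calls that were higher went from 79.5% to 89.7%. Over all genes that share went from 52.1% to 70.1%. A rise of 1 log2 unit or more was seen in 22 members, beside 18% of all genes, and no member fell as much, beside 7.66%. The members' median was 1.31 against 0.04 for all genes, and libraries did not overlap for 40 members, beside 80.2%.

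All 4 droplet coat members were higher. Plin1 rose from 6 counts to 2666, a ratio of 415 with an exact 95% interval of 191 to 1133. Plin4 rose 22-fold, from 2.57 ± 0.165 to 57 ± 4.39 CPM, and Plin2 1.38-fold. Cidec remained scarce at 1.29 ± 0.308 CPM, with 52 counts against 2, a ratio of 24.3 with an interval of 6.4 to 206.

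The uptake step was higher in 8 of 9 members. Lpl was 2779, 2815 and 2816 CPM in the SB431542 libraries, 17.7-fold above the TGF-b1 libraries, Fabp4 was 647, 645 and 637 CPM, 14.3-fold above, and Cd36 was 428, 409 and 415 CPM, 12.5-fold above. All of these libraries lay above the highest TGF-b1 library. Acsl1, the acyl-CoA synthetase of fat and liver, rose 3.75-fold, Acsl4, which prefers arachidonate, 1.22-fold, and Acsl3, found on nascent droplets, was lower by 1.25-fold from 37 ± 0.985 to 29.5 ± 1.22 CPM, a call that total counts did not keep (-0.06, adjusted p = 0.34, edgeR quasi-likelihood test). Gpihbp1 rose from 20 counts to 1344 (33.2 ± 1.11 CPM), a ratio of 62.8 with a 95% interval of 40.5 to 103. Of the endothelial markers, 8 of 9 rose as well, to a summed 919.6 to 943 CPM. Their part in the Gpihbp1 result was not tested.

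Both lipogenic regulators that had been near 0 were counted well here. Mlxipl was 11.2, 9.56 and 10.9 CPM, against 0, 0.443 and 0.135 CPM in TGF-b1 libraries, a ratio of 57.2 with an interval of 27.5 to 143. Thrsp was 4.25, 3.24 and 4.69 CPM, from 164 counts against 1, a ratio of 153 with an interval of 27.1 to 6092. The groups did not overlap for either, and the width of the Thrsp interval comes from its single count in the TGF-b1 libraries. Srebf1 rose 1.42-fold to 137 ± 1.39 CPM.

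The enzymes that these regulators are known to control in liver and fat did not rise together. Fasn was 366, 369.8 and 374 CPM, 1.55-fold below the TGF-b1 libraries, Me1 was 96.1, 91.1 and 89.4 CPM, 1.65-fold below, and Acly was 314, 302 and 301 CPM, 1.31-fold below. None of these libraries reached a TGF-b1 or a mock library of the same gene. Acaca was lower by 0.15 on the log2 scale (-0.15 ± 0.033), which turned to 0.10 with total counts. Acss2 rose 2.73-fold to 22.6 ± 0.253 CPM. Of the elongases and desaturases 4 were higher and 3 lower. Scd1 rose 1.53-fold and Fads2 1.52-fold, whereas Scd2 fell 1.29-fold, and the calls of Elovl6 (-0.19 ± 0.046) and Fads3 (-0.17 ± 0.023) turned to 0.06 and 0.09 with total counts.

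The Fasn gene is on the minus strand of chromosome 11 (mm10, 120805958 to 120824548). Its start-site window at chr11:120824498-120824797 is shown because Fasn and Plin1 went in opposite directions with the inhibitor. Capitals mark CCAAT on either strand, at window positions 161, 189 and 192, of which the last 2 overlap on opposite strands.

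Fasn start-site window: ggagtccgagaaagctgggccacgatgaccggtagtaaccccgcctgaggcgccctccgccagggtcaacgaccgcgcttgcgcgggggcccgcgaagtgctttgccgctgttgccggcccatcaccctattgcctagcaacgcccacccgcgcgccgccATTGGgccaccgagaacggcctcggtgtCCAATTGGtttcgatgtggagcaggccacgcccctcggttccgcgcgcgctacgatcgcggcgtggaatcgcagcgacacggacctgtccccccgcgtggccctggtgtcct

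In esterification, 6 of 7 members rose, each by 1 log2 unit or more. They were Gpd1 at a ratio of 22.9 (interval 15.1 to 36.5), Gpam at 4.09-fold, Dgat2 at 3.28-fold, Lpin1 at 3.06-fold, Agpat2 at 2.48-fold and Dgat1 at 2.16-fold. Dgat1 and Dgat2 are the unrelated enzymes that add the last fatty acid. Agpat3 was not called at -0.05 ± 0.031. With total counts it was 0.20 and called higher (adjusted p = 1.89e-08, edgeR quasi-likelihood test).

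In lipolysis, 5 of 6 rose. Aqp7 rose from 4 counts to 326, a ratio of 76.2 with a 95% interval of 29.5 to 281. Lipe was 58.7, 59.2 and 60.6 CPM in SB431542 and 3.41, 5.41 and 4.79 CPM in TGF-b1 libraries, 13.1-fold apart, and G0s2 was 13.2-fold higher at 42 ± 2.84 CPM. Pnpla2 was 138, 132 and 133 CPM, 4.03-fold higher, and Abhd5 rose 1.33-fold. Both the lipase and its inhibitor were above their TGF-b1 level in every library. Mgll, at 76.7, 74.6 and 75.2 CPM, was not called against TGF-b1 (0.07 ± 0.042, adjusted p = 0.126, edgeR quasi-likelihood test), but was with total counts (0.33, adjusted p = 3.24e-10).

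**Figure D3:**
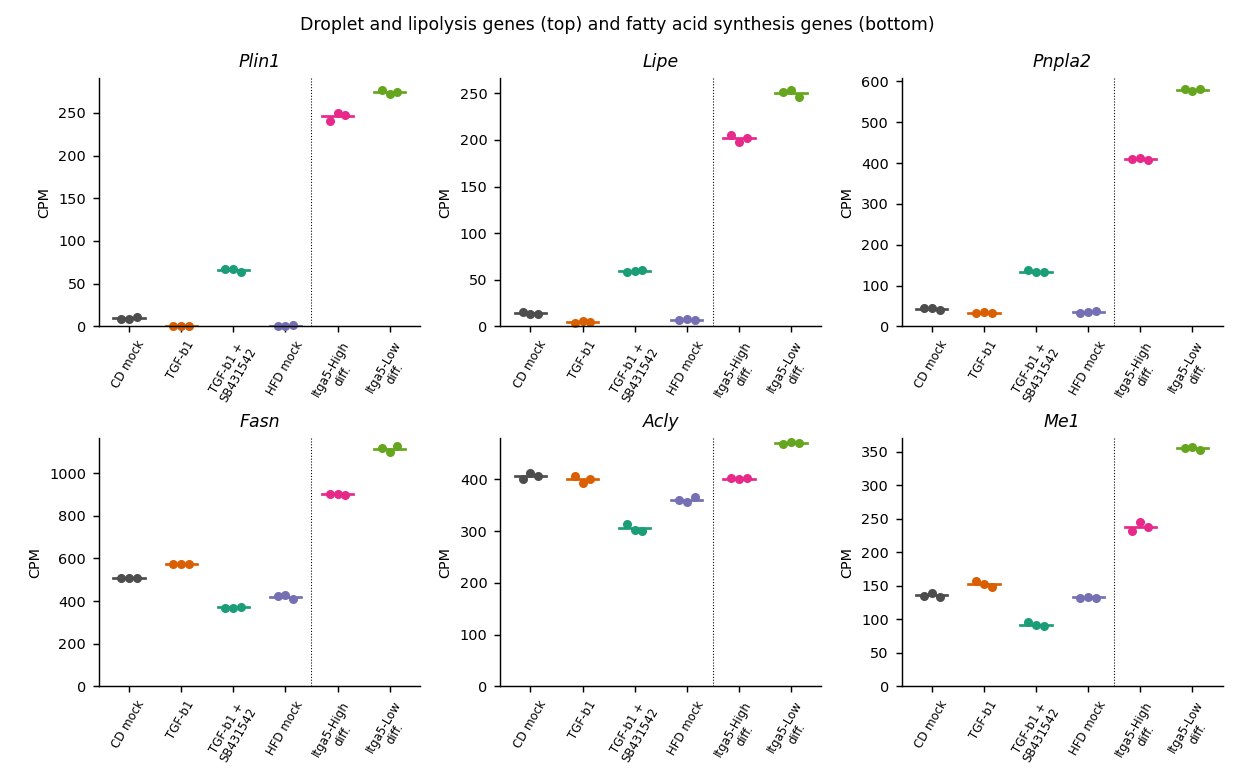
CPM of Plin1, Lipe, Pnpla2, Fasn, Acly and Me1 in each library of the 6 groups, with points for libraries, bars for means and linear axes from 0. Plin1, Lipe and Pnpla2 are highest of the undifferentiated groups with SB431542, whereas Fasn, Acly and Me1 are lowest there, at 366 to 374, 301 to 314 and 89.4 to 96.1 CPM.

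Adipocyte markers were higher too, 7 of 7 tested, at a summed 804 to 812 CPM, and 13 of 14 macrophage markers rose, to a summed 1133 to 1153 CPM from 635 to 653 CPM. Mesothelial markers rose in 8 of 10, to a summed 2324 to 2333 CPM from 729 to 744 CPM. Preadipocyte markers rose in 7 of 8, to a summed 2162 to 2173 CPM from 1275 to 1300.4 CPM, with Ly6a at 299 against 4.39 CPM. Their part in the members' rise was not tested. Of the 60 other tested genes of these steps, 34 rose and 18 fell. Adrb3 rose from 0.742 to 41.1 CPM and Prkar2b from 5.43 to 90.1 CPM, and 9 of the 10 other lipolysis genes were called higher with none lower. In the esterification list 7 of 13 were lower, among them Pck2, the mitochondrial relative of Pck1, from 151 to 54.9 CPM.

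TGF-b1 with SB431542 was also set against mock cells. All droplet and lipolysis members, all 3 synthesis regulators, 7 of 9 uptake and 5 of 7 esterification members were above their untreated level. Most synthesis enzymes and desaturases were below it. Of 41 members tested, 27 were higher than in mock and 11 lower, where 61.2% of all genes were called, 30.7% higher and 30.5% lower. A rise of 1 log2 unit or more was seen in 18, beside 7.82%, and none fell as much, beside 2.83%. The median was 0.90 against 0.01, and libraries did not overlap for 37, beside 64%. This comparison shares its libraries with both others.

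The largest rises were those of 2 synthesis regulators. Thrsp had 164 counts against 4, a ratio of 37.7 with a 95% interval of 14.4 to 139.9. Mlxipl had 428 against 24, a ratio of 16.4 with an interval of 10.9 to 25.9. Srebf1 was 1.14-fold higher. Aqp7 was 7.08-fold above mock, Plin1 7.01-fold, Gpd1 5.5-fold, Lipe 4.3-fold, Fabp4 4.11-fold, Pnpla2 3.16-fold and Lpl 2.52-fold. All 4 droplet members and all 6 lipolysis members were called higher, with G0s2 at 2.03-fold and Abhd5 at 1.42-fold. Lpin1 (0.06 ± 0.053), Agpat3 (0.05 ± 0.031) and Elovl5 (-0.05 ± 0.031) were the 3 not called. With total counts Lpin1 (0.17) and Agpat3 (0.16) were called higher (adjusted p = 0.00366 and 1.41e-05, edgeR quasi-likelihood test). In uptake, Acsl3 was 1.6-fold lower, at 29.5 ± 1.22 against 47.3 ± 3.69 CPM, and Acsl4 was lower at -0.13 ± 0.025, a call not kept with total counts (-0.03, adjusted p = 0.38, edgeR quasi-likelihood test). Lower than mock were 4 of 5 synthesis enzymes and 5 of 7 elongation and desaturation members, of which Fads1 lost its call with total counts (adjusted p = 0.88, edgeR quasi-likelihood test). Fasn was lower by 1.37-fold, Acly by 1.33-fold, Me1 by 1.47-fold and Scd2 by 1.73-fold, from 1342 ± 4.59 to 776 ± 11.2 CPM. Acaca was called lower at -0.11 ± 0.033, was 0.00 with total counts, and lost its call without SB431542 replicate 2 (adjusted p = 0.0522, edgeR quasi-likelihood test). All 14 macrophage markers, 8 of 9 endothelial markers and all 7 tested adipocyte markers were higher than in mock, and 7 of 10 mesothelial markers were lower, to a summed 2324 to 2333 CPM from 2594 to 2624 CPM. Their part in the result was not tested. Of the 60 other tested genes, 28 were higher and 16 lower, with Angptl4, a secreted inhibitor of lipoprotein lipase, at 78.4 against 24.7 CPM.

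HFD mock against CD mock asks how the diet of the donor mice was reflected in their cultured preadipocytes. Most lipolysis, desaturation and synthesis members were lower in cells from HFD mice, whereas 4 uptake genes, Slc27a1, Cd36, Acsl1 and Fabp5, were higher. Of 41 members 26 were lower and 7 higher, where 54% of all genes were called, 26.8% lower and 27.2% higher. With total counts 30 were lower and 6 higher, and the share of all-gene calls that were higher went from 50.4% to 33.6%. Me1 (-0.12), Abhd5 (-0.14), Dgat1 (-0.25) and Acsl3 (-0.19), not called with TMM, were then called lower. A fall of 1 log2 unit or more was seen in 8, beside 7.33% of all genes, and a rise as large in 1, Slc27a1, beside 4.35%. The median was -0.39 against -0.01, and libraries did not overlap for 31, beside 58%. The CD mock libraries are shared with the comparisons above.

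Slc27a1, a transporter that links fatty acid uptake to activation, was 14.4, 15.3 and 15.6 CPM in CD mock and 51.9, 52.3 and 51.5 CPM in HFD mock libraries, 3.43-fold higher. Cd36 was 139, 147 and 140.2 CPM and 262, 273 and 264 CPM, 1.87-fold higher, and Acsl1 was 1.4-fold higher. The HFD libraries lay above the CD libraries for each of these. Lpl was 1.42-fold lower at 785 ± 2.82 CPM, Fabp4 1.65-fold lower at 94.8 ± 2.71 CPM, and Gpihbp1 5.89-fold lower at 1.39 ± 0.154 CPM.

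Plin1 was 0.498, 0.817 and 1.06 CPM in HFD mock libraries, 11.7-fold below CD mock, and Plin4 was 1.71-fold lower, while Plin2 was 1.26-fold higher. In lipolysis, Mgll was 40.1, 38.7 and 36.8 CPM in CD and 10.8, 13 and 13.8 CPM in HFD libraries, 3.08-fold lower, and G0s2 was 2.17-fold, Lipe 1.91-fold and Pnpla2 1.2-fold lower. The groups did not overlap for any of these. Aqp7 went from 42 counts to 7, a ratio of 6.53 with a 95% interval of 2.91 to 17.2. Abhd5 was not called with TMM. Set beside one another, Mgll was 71.7 ± 2.71 CPM in TGF-b1, 38.5 ± 1.63 in CD mock and 12.5 ± 1.55 in HFD mock cells.

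Among synthesis enzymes 4 of 5 were lower, by 1.57-fold for Acss2, 1.31-fold for Acaca, 1.21-fold for Fasn and 1.13-fold for Acly. Me1 was not called with TMM, at -0.04 ± 0.03. Scd1 was 374, 380.4 and 379 CPM in HFD libraries, 2.36-fold below CD, and Elovl6, which extends palmitate to stearate, was 1.96-fold lower. Fads3 was 1.43-fold higher, at 250.4, 252 and 249 CPM. In esterification 3 of 7 were lower, Gpd1 (2.12-fold), Lpin1 (1.69-fold) and Gpam (1.18-fold), and 3 were not called. The Gpd1 libraries overlapped, at 0.782, 0.817 and 1.9 CPM in HFD and 2.72, 2.97 and 1.8 CPM in CD libraries. Agpat2 was called higher at 0.21 ± 0.077, but not with total counts (0.12, adjusted p = 0.167), not with DESeq2 (adjusted p = 0.0556) and not without CD mock replicate 2 or 3 or HFD mock replicate 1 (adjusted p = 0.0932, 0.146 and 0.0902, edgeR quasi-likelihood test). Mlxipl had 24 counts in CD and 7 in HFD libraries, a ratio of 3.73 with an interval of 1.56 to 10.3, and its call was lost without CD mock replicate 2 or HFD mock replicate 2 (adjusted p = 0.0971 and 0.0543, edgeR quasi-likelihood test).

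Markers of other cells moved with diet. Macrophage markers were higher in HFD libraries, 13 of 14, at a summed 2701 to 2731 CPM against 572 to 584 CPM, with Lyz2 at 1163 against 307 CPM and Adgre1 at 116 against 16 CPM. All 10 mesothelial markers were lower (671 to 681 against 2594 to 2624 CPM) and all 9 endothelial markers were lower (123 to 130.2 against 409.6 to 429.9 CPM). Of 7 adipocyte markers tested, 5 were lower, with Adipoq at 0.29 against 3.99 CPM, and 2 higher, Pparg at 30.4 against 26 CPM and Cebpa at 180.1 against 133 CPM. Cebpa makes up most of their sum, which was 209.8 to 218 against 176 to 189 CPM. Preadipocyte markers were lower in 6 of 8. Their part in the members' changes, Cd36 and Gpihbp1 included, was not tested. Of 60 other tested genes, 15 were higher and 23 lower. Lysosomal acid lipase Lipa, which is abundant in macrophages, was 204 against 119 CPM, and Adrb3 was 0.737 against 3.64 CPM. The caveolar protein Cav1 was lower at 208 against 489 CPM.

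**Figure D4:**
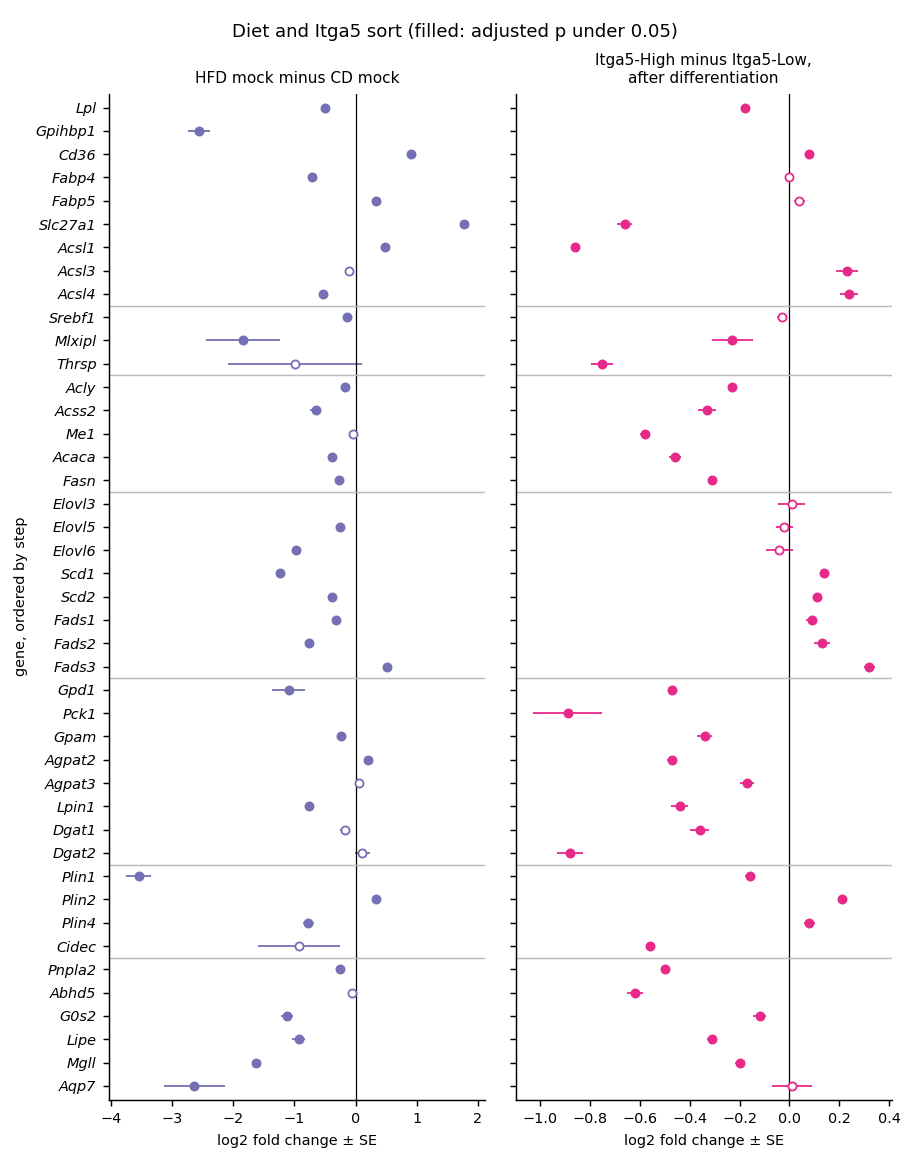
Log2 change of each tested member with its standard error for HFD mock against CD mock and for Itga5-High against Itga5-Low after differentiation, with filled points where the adjusted p is under 0.05. In the first panel Plin1 is lowest at -3.55 and Slc27a1 highest at 1.78, and in the second panel no member reaches 1 log2 unit.

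Itga5-High against Itga5-Low asks whether cells sorted for more or less of this integrin subunit differed once differentiated. After differentiation Itga5 itself was 472 CPM in Itga5-High and 329 CPM in Itga5-Low cells. Itga5-High cells had less of 8 of 8 esterification members, 5 of 5 synthesis enzymes, 2 of 3 regulators and 5 of 6 lipolysis members and more of 5 of 8 elongation and desaturation members, and every difference was under 1 log2 unit. Of 42 members tested, 25 were lower and 10 higher in Itga5-High cells, where 53.6% of all 13468 genes tested were called, 26.5% lower and 27.1% higher. No member was called higher by 1 log2 unit or more, beside 2.04% of all genes, and none lower by as much, beside 2.08% (4.12% in either direction). The median was -0.19 against -0.00, and libraries did not overlap for 35, beside 58.2%.

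All 8 esterification members were lower in Itga5-High cells. Dgat2 was 32.2, 29.6 and 32.2 CPM in Itga5-High and 60.7, 56.3 and 55.9 CPM in Itga5-Low libraries, a difference of -0.88 ± 0.051, and Gpd1 was 446, 430.2 and 433 CPM and 603, 613 and 598 CPM. Agpat2 was 1.39-fold lower, Lpin1 1.35-fold, Dgat1 1.28-fold and Gpam 1.27-fold. The groups did not overlap for any member of the step. Pck1 was 3.64, 5.39 and 4.05 CPM against 7.86, 9.07 and 6.92 CPM, lower by 0.89 on the log2 scale (-0.89 ± 0.14). Without Itga5-High replicate 2 it was past 1 log2 unit, the 1 member to be so.

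All 5 synthesis enzymes were lower as well: Me1 by 1.5-fold, Acaca by 1.38-fold, Acss2 by 1.26-fold, Fasn by 1.24-fold and Acly by 1.17-fold. Me1 was 232, 245 and 237 CPM in Itga5-High and 356, 357 and 353 CPM in Itga5-Low libraries. Thrsp was 45.2, 44.1 and 44.7 CPM against 70.8, 76.6 and 77.3 CPM, 1.68-fold lower, again without overlap. Srebf1 was not called (-0.03 ± 0.021), but was called lower with total counts (-0.08, adjusted p = 0.00228, edgeR quasi-likelihood test). Mlxipl, 1.17-fold lower, was not called with DESeq2 (adjusted p = 0.0833). In contrast, 5 of 8 elongation and desaturation members were higher and none lower, by 0.09 to 0.32 on the log2 scale, with Fads3 highest at 1.25-fold and Scd1 at 1.1-fold (4213 ± 28.4 against 3830.0 ± 12 CPM).

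In uptake, Acsl1 showed the widest gap, at 418, 416 and 418 CPM in Itga5-High and 756, 766 and 753 CPM in Itga5-Low libraries, 1.82-fold lower, and Slc27a1 was 1.58-fold lower. Acsl3 and Acsl4 were 1.17-fold and 1.18-fold higher. Fabp4 was not called at 0.00 ± 0.0079, and with total counts it was -0.04 and called lower. Gpihbp1 was not tested, with 12 and 16 counts.

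In the droplet coat, members split. Cidec was 305, 307 and 305 CPM in Itga5-High and 453, 445 and 456 CPM in Itga5-Low libraries, 1.48-fold lower, and Plin1 was 1.12-fold lower. Plin2 was 1.16-fold higher, and Plin4 1.06-fold higher, a call not kept with total counts (adjusted p = 0.0801, edgeR quasi-likelihood test). In lipolysis 5 of 6 were lower. Abhd5 was 85.2, 90.9 and 81.4 CPM against 131, 128 and 135 CPM, 1.53-fold lower, Pnpla2 was 409, 412 and 407 CPM against 581, 576 and 581 CPM, 1.41-fold lower, and Lipe was 1.24-fold lower. The groups did not overlap for these 3, and Aqp7 was not called (0.01 ± 0.079).

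The adipocyte marker list was lower in Itga5-High cells for 5 of 7 tested genes, at a summed 755 to 758 CPM against 1249 to 1272 CPM. Car3 had the widest gap in CPM, at 107 against 402, and Adipoq was at 257 against 369 CPM. Cfd went the other way, at 24.7 against 14.1 CPM. Preadipocyte markers split, 3 higher and 3 lower of 8, with Ly6a at 997 against 836 and Cd34 at 12 against 44.5 CPM. Pparg was not called (0.03 ± 0.048). Macrophage markers were at 46.5 to 47.5 against 23.9 to 24.9 summed CPM, with Ptprc, Fcgr1 and Cd163 not analysed here. Most of that gap was Csf1r, at 29.5 against 9.54 CPM, while Lyz2 was at 6.06 against 6.02 CPM and not called. Mesothelial markers were at 101 to 104 against 42.2 to 45.6 summed CPM, nearly all of it Krt19, at 99.3 against 40.1 CPM. Msln, Krt8 and Krt18 were not analysed here. Their part in the members' differences was not tested. Of 62 other tested genes, 22 were higher and 21 lower. Angptl4 was the 1 past 1 log2 unit, at 542 against 251 CPM (1.11 ± 0.017).

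Lipe is read from 2 start sites, and its transcripts did not change alike. The gene is on the minus strand of chromosome 7 (mm10, 25379527 to 25395988). The shorter RefSeq transcript, of 2785 bases, starts at the inner site and the longer one, of 3221 bases, at the outer site. The windows around both starts are shown because the transcripts they begin were counted apart. Capitals mark CACGTG, which is at position 96 of the outer window, and the inner window holds none.

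Lipe outer window, chr7:25395938-25396237, minus strand: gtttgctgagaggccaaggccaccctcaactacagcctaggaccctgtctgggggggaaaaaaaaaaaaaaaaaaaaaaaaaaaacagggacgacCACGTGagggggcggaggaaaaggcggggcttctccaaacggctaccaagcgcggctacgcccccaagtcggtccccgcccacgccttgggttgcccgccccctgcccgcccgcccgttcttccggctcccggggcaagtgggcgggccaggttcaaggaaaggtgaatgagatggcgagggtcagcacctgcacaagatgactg
Lipe inner window, chr7:25390063-25390362, minus strand: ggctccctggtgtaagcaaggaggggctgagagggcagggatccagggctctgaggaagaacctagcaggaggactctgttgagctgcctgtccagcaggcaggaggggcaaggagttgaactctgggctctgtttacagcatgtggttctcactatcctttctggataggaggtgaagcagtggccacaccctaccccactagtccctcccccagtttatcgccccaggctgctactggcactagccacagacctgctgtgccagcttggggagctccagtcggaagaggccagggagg

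The shorter transcript held 57.6, 73.3 and 72.3% of Lipe counts in CD mock, 55.9, 42.2 and 39.4% in TGF-b1 and 85.2, 87.1 and 81.2% in SB431542 libraries. The SB431542 libraries lay above all others of the undifferentiated cells, and TGF-b1 libraries below CD mock libraries. In HFD mock libraries the share ran from 28.6 to 74%, too wide to place. It was 95.3 ± 1.51% in Itga5-High and 93.9 ± 0.698% in Itga5-Low cells. In CPM the shorter transcript was 9.34 ± 0.567 in CD mock, 2.03 ± 0.215 in TGF-b1 and 50.2 ± 1.21 in SB431542 cells, and the longer one 4.54 ± 1.62, 2.51 ± 0.865 and 9.23 ± 1.93. Only 172 Lipe counts lay behind the TGF-b1 shares, and the division of reads common to both transcripts is not given in the sources used here. An lncRNA, 4732471J01Rik, overlaps Lipe, and without a stated strand setting reads of the pair cannot be told apart.

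**Figure D5:**
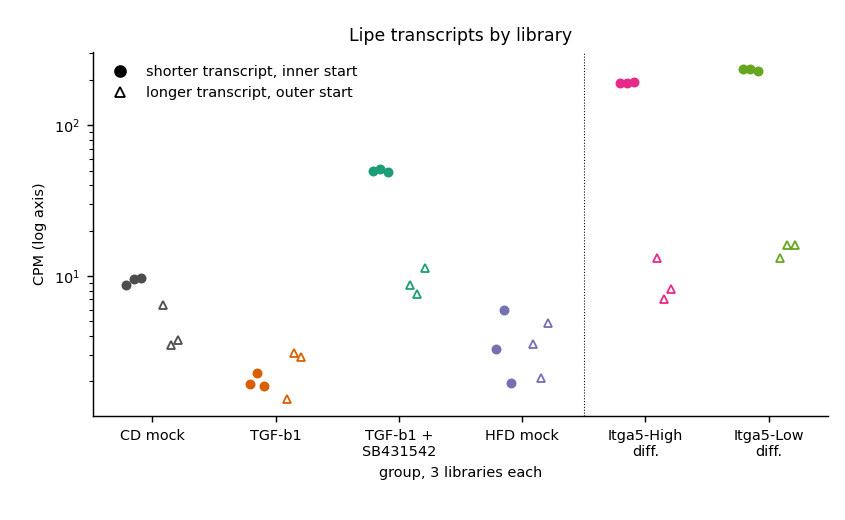
CPM of the shorter (circles) and longer (triangles) Lipe transcript in each library of the 6 groups, on a log axis. Between TGF-b1 and SB431542 libraries the circles move from about 2.03 to 50.2 CPM on average and the triangles from 2.51 to 9.23 CPM.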

How the data were processed

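Poly(A) RNA from mouse preadipocytes was sequenced in 18 libraries. The authors deposited each estimated count per RefSeq transcript, unscaled, made with fastp, STAR and featureCounts on mm10, per the submitters' processing notes. Their versions, the strand setting and the sharing of reads among transcripts were not given in the sources used here. Transcript lengths, a value of another kind that the authors deposited, were used for levels per kb. Transcript counts were summed per gene symbol and rounded (Python 3.11.15, pandas 2.3.3).

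Groups were compared with edgeR 4.0.16 in R 4.3.3 (filterByExpr, TMM, glmQLFit, glmQLFTest), in 1 fit of 12 undifferentiated libraries and 1 of 6 differentiated libraries, with 14078 and 13468 genes. The dispersion was kept at 1e-04 or above, since 3780 and 1746 genes fell below it. Benjamini-Hochberg adjustment ran over all genes tested, with calls at an adjusted p under 0.05. Folds are fitted values. For sums of 30 counts or fewer, the ratio of summed CPM is given with an exact 95% interval, which covers counting error only. On simulated counts, edgeR recovered 82% of 1.5-fold and 88% of 2-fold changes for TGF-b1 against mock, with 6 false calls. For Itga5-High against Itga5-Low it recovered 86% and 89%, with 7 false calls. In the simulation 100 genes changed at each fold, in random directions, and all others had equal means between groups. It therefore does not bear on the choice of scaling.

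Alternatives were total-count scaling, DESeq2 1.42.0, no low-count filter, no dispersion floor, a replicate block, only the libraries compared, and leaving out each replicate. Each pair of replicates differed by more than sampling noise (chi-square over degrees of freedom 1.15 to 1.26 in 18 pairs), so all were kept. In the annotation, 22 members overlap another gene, 6 of them a protein-coding one (Acsl3, Srebf1, Acaca, Elovl3, Lpin1 and Plin4), and their counts may include its reads. All 43 members are named, though not in every comparison. Values are given mainly for called members with the larger changes per step and direction. Members and lists were chosen with earlier results of these data known.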

Additional observations from a re-analysis of the deposited data

How the results depend on the processing

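Scaling by total counts changed the most calls. With it, members called higher with TGF-b1 went from 7 to 4, and members called lower for SB431542 against TGF-b1 from 8 to 4. Directions that turned with it were, for TGF-b1 against mock, Acaca (-0.10) and Agpat3 (-0.05); for SB431542 against TGF-b1, Acaca (0.10), Elovl6 (0.06), Fads3 (0.09) and Agpat3 (0.20); for SB431542 against mock, Acaca (0.00); and for Itga5-High against Itga5-Low, Fabp4 (-0.04). CPM by column total stood at 0.922 to 1.1 times the TMM value by group, which moved 138 levels by over 1 SD and 116 by less. Leaving out each replicate in turn, members called lower by 1 log2 unit or more in Itga5-High cells ran from 0 to 1, and every other count stayed within 1.5 times its value.

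With the replicate block, 29 members fell and 7 rose with TGF-b1, as without it, and no member's call changed in any of the 5 comparisons. Same-numbered libraries deviated with correlations of -0.05 to 0.00, so the numbers pair nothing here. Fitting only the 6 libraries compared left 38 of the 41 members tested for TGF-b1 and for HFD. Depth limits Mlxipl, Thrsp, Cidec, Aqp7, Plin1, Gpihbp1, Gpd1 and Elovl3, whose low groups hold 1 to 24 counts.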

Other observations

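Transcripts of other members also differed between groups, given here as values without a test. Acsl1 has a transcript from an inner start (mm10, chromosome 8, 46490966) and one from an outer start (46471037). The inner one held 28.1 ± 4.45% of Acsl1 counts in Itga5-High and 24.7 ± 1.55% in Itga5-Low cells, and 7.95 ± 3.75% to 17.8 ± 11.8% in undifferentiated groups. For Srebf1, the transcript from the innermost listed start (60210472 on chromosome 11, minus strand) held 18.8 ± 4.73% in CD mock, 14.8 ± 1.39% in HFD mock and 27.5 ± 2.57% in SB431542 cells, and 33.7 ± 4.09% and 41.5 ± 1.27% in Itga5-High and Itga5-Low cells. The HFD mock libraries lay below all SB431542 libraries. For Slc27a1, the transcript with the innermost listed start (71570594 on chromosome 8) held 74 ± 5.52% in CD mock, 53.1 ± 5.22% in TGF-b1, 45.9 ± 16.1% in SB431542 and 62.1 ± 6.39% in HFD mock cells, and each of its 4 transcripts had a higher mean CPM in HFD mock than in CD mock cells.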
